A study of Mus musculus with 12 samples.

Results

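The imprinted genes H19, Igf2, Igf2r, Peg3, Mest, Dlk1, Meg3, Cdkn1c, Grb10 and Plagl1 were measured in mouse liver and liver tumours. The 10 genes were taken by name: every probe outside the control spots whose annotated name was one of the 10 was kept, which gave 25 probes in 43 spots, out of 34741 gene names, 55681 probes and 59305 spots. Liver RNA of F2 males of the C3H/HeN strain was hybridised to 12 Agilent 1-colour (Cy3) arrays, in 4 groups of 3. The first group held tumours of the arsenite line, the second liver labelled non-tumour of the arsenite line, the third liver labelled normal of the arsenite line and the fourth liver labelled non-tumour of the control line. All mice were 74 weeks old. In the arsenite line the F0 dams drank tap water with 85 ppm sodium arsenite on gestation days 8 to 18; in the control line they drank plain tap water. F1 males and females were mated at 10 weeks, and arsenite was given to the F0 dams only.

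The labels do not say whether a tumour and a non-tumour sample came from 1 mouse, what set liver called normal apart from liver called non-tumour, or what type the tumours were. The replicates carry numbers only, so p-values here cover only the spread among these arrays, which may be technical. The description of the study also names normal liver and tumours of the control line, which were not analysed here. The tumour arrays filled 1 slide and the normal liver arrays another, while both non-tumour groups shared a slide; slide and group therefore cannot be told apart except between the arsenite and control non-tumour groups. All 7 hepatocyte markers, among them Alb and Ttr, were well above background on every array. Their summed linear level was 3978 to 4264 in tumours, against 5351 to 5879 in arsenite non-tumour liver, in units of each array's 75th percentile. The brightest genes weigh most in such a sum. By the test given below, 4 were called lower than in arsenite non-tumour liver, 0 higher and 3 not called. Cyp2e1 gave 8.95, 5.01 and 6.34 in tumours against 10.17, 10.00 and 10.03, whereas Alb gave 10.61, 10.83 and 10.78 against 10.81, 10.84 and 10.72. The 8 macrophage markers summed to 36.2 to 59.6 in tumours, against 83.0 to 117.7 in arsenite non-tumour liver, and the 7 endothelial markers to 55.4 to 75.7 in tumours, against 94.5 to 114.5 in arsenite non-tumour liver. Of the macrophage markers 6 were called lower, 0 higher and 2 not called. Of the endothelial markers 3 were called lower, 1 higher and 3 not called. The 3 tested B and plasma cell markers summed to 2.81 to 4.95 in tumours, against 1.49 to 2.44 in arsenite non-tumour liver, with 1 called higher. The part of these shifts in the results below was not tested, and in bulk tissue fewer cells of a type and less RNA per cell cannot be told apart.

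An imprinted gene is read mainly from the copy that came from 1 parent, because DNA methylation laid down in the egg or the sperm marks a nearby control region. Many imprinted genes act on growth before birth: Igf2 encodes a growth factor, Igf2r the receptor that takes it up for breakdown, Grb10 an adaptor that damps insulin and IGF signalling, and Cdkn1c an inhibitor of cyclin-dependent kinases. H19, a long non-coding RNA read from the maternal copy beside Igf2, is abundant in fetal mouse liver and is silenced after birth. Peg3, Mest, Dlk1 and Plagl1 are read from the paternal copy, and Meg3, a non-coding RNA beside Dlk1, from the maternal copy.

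The arrays read each transcript with probes of 60 bases. The probes below carry the findings on H19, Igf2r, Peg3, Mest, Dlk1 and Meg3, and for H19 also the probe that gave no signal; they are copied from the deposited files, 5′ to 3′, with positions on mm9 and no part marked. The H19 probe used for the gene lies at chr7:149761492-149761551 and the silent one at chr7:149762417-149762476, both on the minus strand, 925 bases apart.
H19 probe: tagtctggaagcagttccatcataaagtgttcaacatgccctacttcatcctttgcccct
H19 silent probe: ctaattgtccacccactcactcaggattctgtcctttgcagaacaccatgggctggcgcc
The 10-spot Igf2r probe is listed on the minus strand with an end at chr17:12875253-12875263, an interval shorter than the probe. The Peg3 probe lies at chr7:6658774-6658833 on the minus strand, and the 10-spot Mest probe at chr6:30698279-30698338 on the plus strand.
Igf2r probe: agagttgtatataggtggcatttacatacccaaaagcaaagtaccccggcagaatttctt
Peg3 probe: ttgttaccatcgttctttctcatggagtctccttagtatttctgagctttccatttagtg
Mest probe: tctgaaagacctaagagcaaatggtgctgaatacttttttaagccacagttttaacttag
Dlk1 and Meg3 are read from the plus strand of chromosome 12, at chr12:110698721-110698781 and chr12:110809678-110809737.
Dlk1 probe: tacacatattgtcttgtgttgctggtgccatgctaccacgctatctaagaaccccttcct
Meg3 probe: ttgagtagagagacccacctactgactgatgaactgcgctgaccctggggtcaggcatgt

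Values are given as normalised log2 intensity, in which 0 is the array's 75th percentile of processed signals. The tests were run with limma over 18101 genes with a probe that all 3 arrays of some group showed well above background, and a gene was called at a Benjamini-Hochberg adjusted p under 0.05. Of the 10 members, 8 had such a probe; Igf2 and Dlk1 had none. H19 and Peg3 entered the test only through the tumours, where alone they were well above background, so they could be called only higher and the counts of members below are a description. Between arsenite tumours and arsenite non-tumour liver 3 of 8 members were called higher (H19, Igf2r and Peg3) and 0 lower, where among all genes 17.1% were higher and 29.9% lower. Against arsenite normal liver 17.1% of all genes were called higher, and 4 members were (the same 3 and Mest), with 0 lower where 30.9% of all genes were. Against control non-tumour liver 16.8% of all genes were called higher, and 4 members were (the same 4), with 0 lower where 32.2% of all genes were. These comparisons share the 3 tumour arrays and are not independent of each other. The median difference over the 8 members was 0.49, 0.78 and 0.63 in this order of comparisons, beside -0.13, -0.15 and -0.15 over all genes tested. H19 and Peg3 lie above these medians and entered only through the tumours, which can only raise them, so the medians too are a description. Groups with every tumour array above every array of the other group made up 20.5%, 21% and 19.5% of all genes in the same order, and probes tested singly were called higher in 16.3%, 16% and 15.7%.

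**Figure D1:**
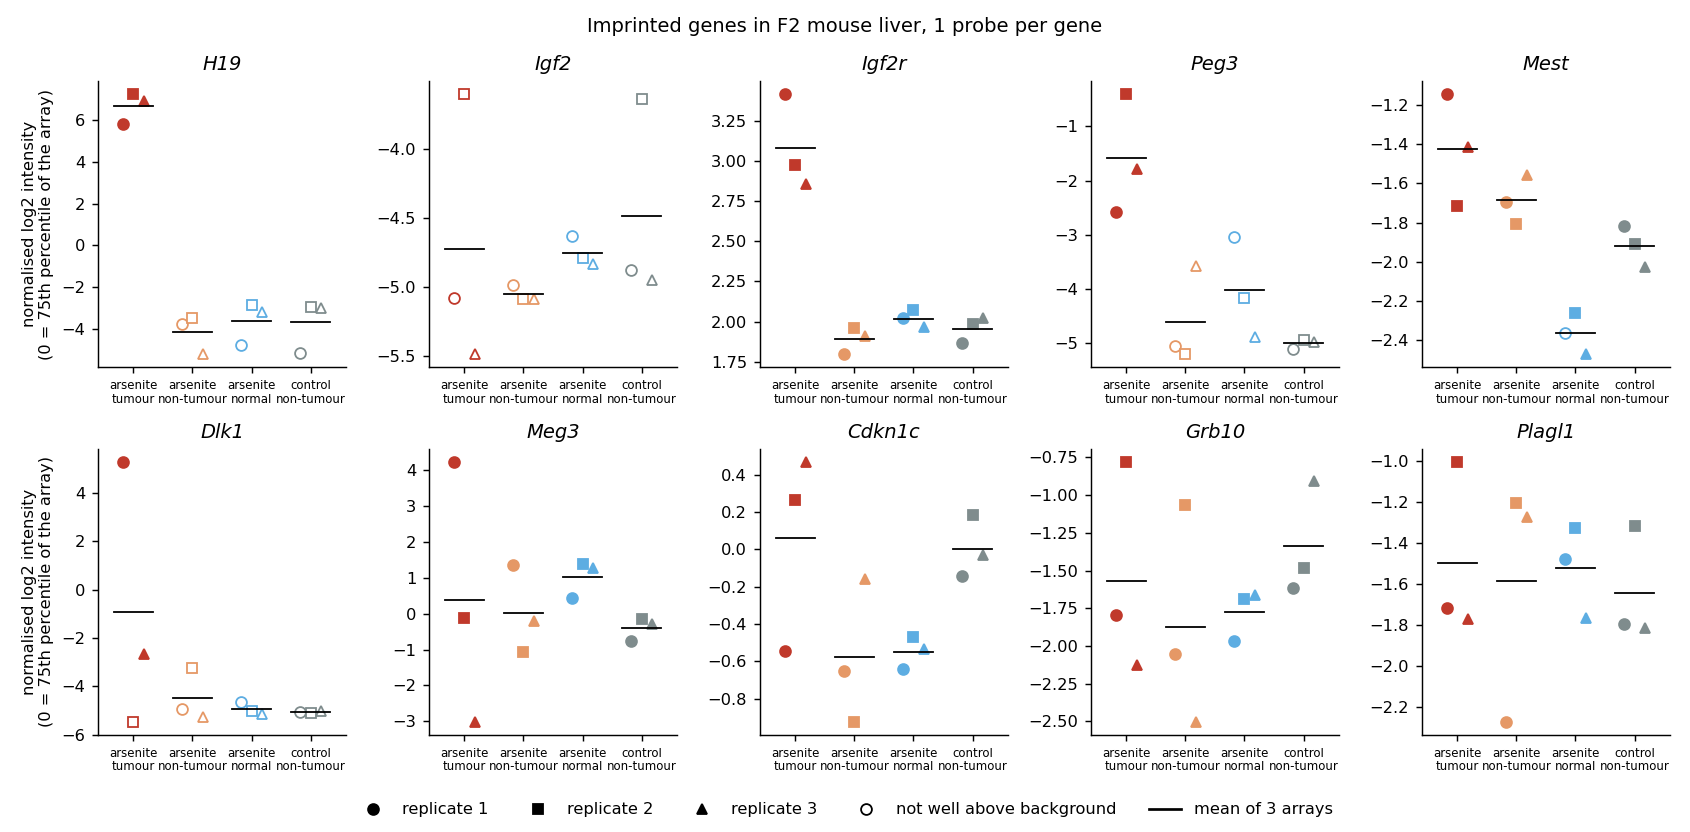
Normalised log2 intensity (y axis, own scale per panel) of 1 probe for each of the 10 genes on the 12 arrays, by group; symbols mark the replicate number, open symbols a probe not well above background, and bars the mean of 3 arrays. H19, Igf2r and Peg3 are higher on all 3 tumour arrays than on the other 9, Igf2 is open on all 12, and the Dlk1 and Meg3 points of tumour 1 stand above all others.

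The RNA of H19 was detected in tumours only. On the probe used for the gene it stood at 5.81, 7.22 and 6.88 in the 3 tumours, against -3.77, -3.45 and -5.18 in arsenite non-tumour liver. In arsenite normal liver the values were -4.75, -2.85 and -3.16, and in control non-tumour liver -5.12, -2.93 and -2.98. On all 9 arrays outside the tumours the probe was not marked as well above background, so the differences are given as bounds. H19 was at least 840-fold higher in tumours than in arsenite non-tumour liver (limma, adjusted p = 1.9e-06), at least 723-fold higher than in arsenite normal liver (adjusted p = 2.9e-06) and at least 766-fold higher than in control non-tumour liver (adjusted p = 2.5e-06). Each bound sets the tumours' mean against the mean, over the other group's arrays, of the higher of 2 values: the dimmest signal marked as well above background on that array and the probe's own signal. Here and below, an adjusted p printed beside a bound belongs to the fitted difference, and the bound itself was not tested.

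Of the 7 H19 probes 6 behaved this way, each well above background on 3 of 3 tumour arrays and on 0 of the other 9. The other 5 of them were at least 60.3 to 313.7-fold higher in tumours than in arsenite non-tumour liver. On all 6, tumour 1 was the lowest and tumour 2 the highest of the tumours; on A_30_P01021588, for instance, the tumours gave 4.39, 5.83 and 5.42. The SD among the 3 tumours was 0.74 on the probe used for the gene. The most 5′ probe, A_55_P1961125, was below background on all 12 arrays, at -5.30, -4.81 and -5.02 in tumours. Probes of 1 gene share their RNA and are not replicates, and brightness is not compared between probes.

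**Figure D2:**
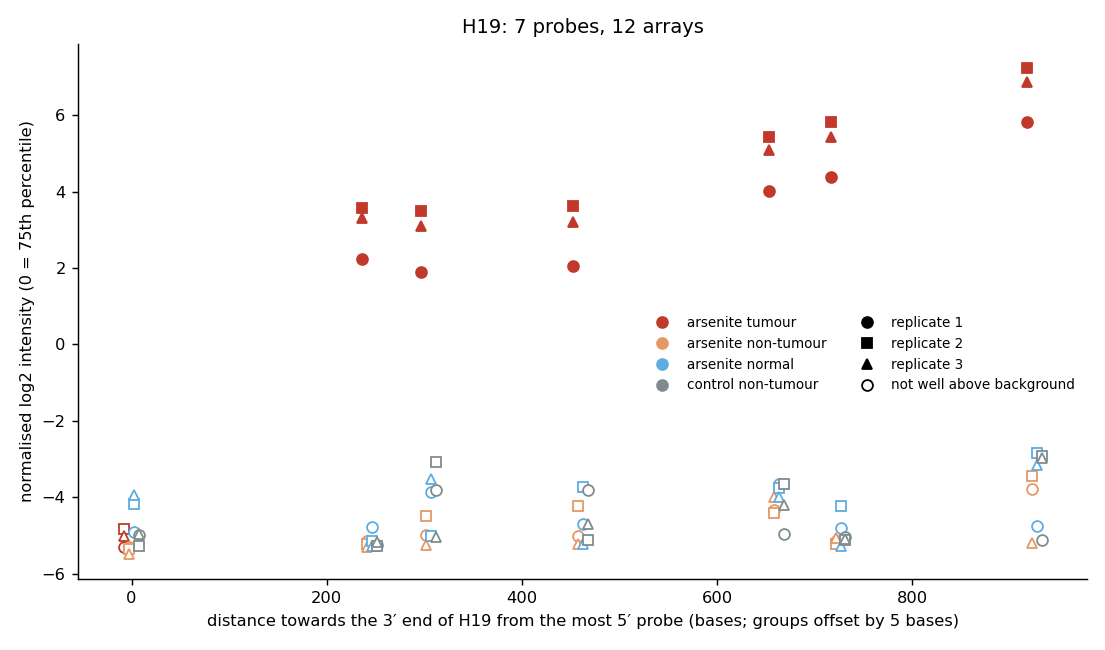
Normalised log2 intensity (y axis) of the 7 H19 probes, placed by distance in bases from the most 5′ probe (x axis), on 12 arrays; colours mark the groups, symbols the replicate, and open symbols a probe not well above background. Filled points occur for tumours alone, on 6 probes, and the probe at 0 bases is open for every array.

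Igf2, the paternally read growth factor gene next to H19, was not well above background on any array. Its single probe, at chr7:149839661-149839720, gave -5.08, -3.60 and -5.49 in tumours and -4.99, -5.08 and -5.09 in arsenite non-tumour liver. Values were -4.63, -4.79 and -4.83 in arsenite normal liver and -4.87, -3.63 and -4.95 in control non-tumour liver. All lie in the range of probes with no measurable signal and have no order; with 1 probe, a change of Igf2 was not detectable at this signal. Ins2, the neighbour on the other side of Igf2, was well above background on 12 of 12 arrays but was not called, at -1.64, -1.33 and -1.41 in tumours and -1.21, -1.38 and -1.73 in arsenite non-tumour liver.

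Igf2r rose in tumours. Its probe gave 3.42, 2.97 and 2.86 in tumours, against 1.80, 1.96 and 1.91 in arsenite non-tumour liver, 2.02, 2.07 and 1.96 in arsenite normal liver and 1.86, 1.99 and 2.02 in control non-tumour liver. The lowest tumour was above the highest of the other 9 arrays. The probe was printed in 10 spots per array, whose SD within an array was 0.074 (median over arrays), which measures the printing and scanning of 1 sample and not the spread between samples. Igf2r was 2.29-fold higher in tumours than in arsenite non-tumour liver (log2 difference 1.19 ± 0.13 SE, adjusted p = 5.0e-05), 2.09-fold higher than in arsenite normal liver (1.06 ± 0.13, adjusted p = 0.00011) and 2.18-fold higher than in control non-tumour liver (1.13 ± 0.13, adjusted p = 7.2e-05).

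Airn, the non-coding RNA that in mouse is read from the paternal copy across Igf2r in the opposite direction, rose as well. Its representative probe, at chr17:13008078-13008137 on the plus strand, gave 0.54, 0.27 and -0.03 in tumours against -1.25, -1.38 and -1.37 in arsenite non-tumour liver. It stood at -1.22, -1.21 and -1.07 in arsenite normal liver and at -1.02, -1.19 and -1.30 in control non-tumour liver. That is a difference of 1.60 ± 0.14 from arsenite non-tumour liver (limma, adjusted p = 9.5e-06), with no overlap between tumours and the other 9 arrays. A second Airn probe, A_55_P2122633 at chr17:12944784-12944843, nearer to the Igf2r probe, gave 1.30, 1.50 and 1.09 in tumours and -2.17, -2.44 and -1.55 in arsenite non-tumour liver, a 10.2-fold difference (adjusted p = 8.2e-05 over all probes). The third, A_51_P418809, was well above background on 3 of 3 tumours and on 0 of the other 9 arrays, and the fourth on none. So the receptor gene and its antisense RNA were both higher on the same 3 arrays. Of the transporter genes beside Igf2r that are imprinted in mouse placenta, Slc22a2 and Slc22a3 were below background on all 12 arrays.

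Peg3, a paternally read zinc finger protein gene, was detected in tumours only, at a low level. Its probe A_52_P235861 gave -2.58, -0.40 and -1.79 in tumours, all well above background. Arsenite non-tumour liver gave -5.06, -5.20 and -3.57, arsenite normal liver -3.04, -4.16 and -4.88, and control non-tumour liver -5.11, -4.94 and -4.97, none of them well above background. The limit of detection was lower on the tumour arrays. There the dimmest signal marked as well above background was -3.47 to -3.39, against -3.18 to -2.60 on the other arrays. Tumour 1, at -2.58, lay close to the highest of these. Peg3 was at least 2.80-fold higher in tumours than in arsenite non-tumour liver (adjusted p = 0.0024), at least 2.49-fold higher than in arsenite normal liver (adjusted p = 0.0082) and at least 2.60-fold higher than in control non-tumour liver (adjusted p = 0.0011). These p-values (limma) belong to the fitted differences of 3.02, 2.44 and 3.41 and do not test the bounds. Tumour 2 was highest, and it was also the only array on which the other Peg3 probe, A_55_P2163319, was well above background, at -2.70. Against arsenite non-tumour liver and against control non-tumour liver Peg3 was called under each of 18 alternative settings. Against arsenite normal liver the call was lost with the replicate number as a block over those 6 arrays (adjusted p = 0.061), where the numbers did not meet the rule for pairs. The neighbours Zim1, Usp29 and Zfp264 were below background on all 12 arrays.

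Mest, a paternally read gene for a protein of the hydrolase family, was low on these arrays and separated the groups differently. The 10-spot probe gave -1.14, -1.72 and -1.41 in tumours, -1.69, -1.81 and -1.56 in arsenite non-tumour liver, -2.36, -2.26 and -2.47 in arsenite normal liver and -1.82, -1.91 and -2.03 in control non-tumour liver. It was well above background on 11 of 12 arrays, and its spots differed by an SD of 0.22 within an array (median over arrays). Tumours overlapped arsenite non-tumour liver (difference 0.26 ± 0.14, adjusted p = 0.15) but lay above arsenite normal liver (0.94 ± 0.14, 1.92-fold, adjusted p = 0.00035) and control non-tumour liver (0.50 ± 0.14, 1.41-fold, adjusted p = 0.015). The last call was lost with normexp background correction (adjusted p = 0.13), in a fit of those 6 arrays alone (0.055) and without control array 3 (0.052). The difference from arsenite non-tumour liver was called without tumour 2 (adjusted p = 0.029) and with a scaling over probes detected on every array (0.049). The second Mest probe, A_55_P2090025, gave -1.96, -2.45 and -1.90 in tumours, against -1.99, -2.13 and -1.83 in arsenite non-tumour liver and -2.66, -2.79 and -2.94 in arsenite normal liver. It too was higher in tumours than in arsenite normal liver, where it was never well above background (at least 1.60-fold, adjusted p = 0.0058 over all probes). Against control non-tumour liver it was not called (adjusted p = 0.28). The remaining probe was below background on all 12 arrays. Over 18 alternative settings the difference from arsenite normal liver ran from 0.32 to 1.16. Copg2, which overlaps Mest, was not called in tumours against arsenite non-tumour liver, at 1.46, 1.52 and 1.33 in tumours and 1.51, 1.77 and 1.67 in arsenite non-tumour liver.

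For Mest, Peg3 and Igf2r, the protein-coding members called higher in at least 1 tumour comparison, the start of the gene is shown from RefSeq (GRCm38.p6), 250 bases before to 50 after it. Capitals mark TGCCGC or its reverse complement GCGGCA, the letters that the mouse zinc finger protein ZFP57 recognises, when methylated, at imprinted control regions. The motif was searched on both strands and occurs in 11.6% of 32851 such windows. Of the members 8 had windows, 15 in all, of which 6 held it. Mest has 3 windows, of which the one at chr6:30733256-30733555 does not hold it, and the other 2, which start 3 bases apart, hold the same 2 places and count as 2 of the 6. The one at chr6:30737800-30738099, plus strand, is shown; the windows of Peg3 at chr7:6730370-6730669 and Igf2r at chr17:12769657-12769956, both on the minus strand, do not hold these letters.
Mest promoter: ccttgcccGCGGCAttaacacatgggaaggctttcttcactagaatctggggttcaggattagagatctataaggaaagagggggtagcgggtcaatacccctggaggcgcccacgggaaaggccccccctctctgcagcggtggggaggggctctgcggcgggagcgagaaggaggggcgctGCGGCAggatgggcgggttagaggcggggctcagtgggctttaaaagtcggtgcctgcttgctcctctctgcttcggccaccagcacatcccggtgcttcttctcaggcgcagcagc
Peg3 promoter: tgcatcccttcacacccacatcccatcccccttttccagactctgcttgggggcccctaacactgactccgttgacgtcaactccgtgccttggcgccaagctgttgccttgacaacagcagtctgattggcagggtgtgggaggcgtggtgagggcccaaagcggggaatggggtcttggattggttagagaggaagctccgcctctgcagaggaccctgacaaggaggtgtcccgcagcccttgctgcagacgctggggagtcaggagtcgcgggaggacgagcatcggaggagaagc
Igf2r promoter: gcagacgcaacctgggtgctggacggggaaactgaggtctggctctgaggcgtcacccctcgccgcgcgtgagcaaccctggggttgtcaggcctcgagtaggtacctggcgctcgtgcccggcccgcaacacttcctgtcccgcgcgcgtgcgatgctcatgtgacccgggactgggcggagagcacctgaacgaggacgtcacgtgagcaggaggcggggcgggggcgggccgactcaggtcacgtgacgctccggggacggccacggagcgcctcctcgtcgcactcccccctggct
A match of letters describes the window and says nothing of binding or methylation in these livers.

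Dlk1 and Meg3 were set apart by tumour 1. Dlk1 encodes a membrane protein related to Notch ligands that is present in fetal liver. Its probe A_66_P117477 gave 5.29, -5.47 and -2.64 in the tumours, with tumours 1 and 3 well above background, and -4.95, -3.25 and -5.26 in arsenite non-tumour liver, none above background. Normal liver of the arsenite line stood at -4.66, -5.03 and -5.15 and control non-tumour liver at -5.07, -5.10 and -5.03. The other Dlk1 probe was well above background in tumour 1 alone, at 2.27, against -5.43 and -5.45 in tumours 2 and 3. Neither probe entered the test, since no group had it above background on 3 arrays.

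Meg3 was likewise highest in tumour 1, yet below every other array in tumour 3. Its main probe gave 4.23, -0.10 and -3.02 in tumours and 1.36, -1.06 and -0.20 in arsenite non-tumour liver. It gave 0.44, 1.39 and 1.27 in arsenite normal liver and -0.76, -0.15 and -0.29 in control non-tumour liver. The tumours thus enclosed all other groups, and Meg3 was not called against arsenite non-tumour liver (0.34 ± 1.41, adjusted p = 0.86), arsenite normal liver (-0.67, adjusted p = 0.72) or control non-tumour liver (0.77, adjusted p = 0.68). Without tumour 1 its difference from arsenite normal liver was -2.60 (adjusted p = 0.034), which would call it lower. The other Meg3 probes gave 1.19, -3.30 and -5.33, and -1.97, -5.31 and -5.27, in the 3 tumours, so that all 3 probes put tumour 1 first. Mirg, a non-coding RNA further along the same domain, had probe values of 2.28, -2.19 and -3.65 and of 1.24, -2.95 and -4.80 in the tumours, again with tumour 1 highest. Rtl1, read opposite to Meg3 in that domain, and Begain were below background on all 12 arrays, and Dio3 was above it on 1 control array only. In tumour 1 the coding gene Dlk1 and the non-coding RNAs Meg3 and Mirg were therefore high on the same array, although in mouse they are read from opposite parental copies.

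**Figure D3:**
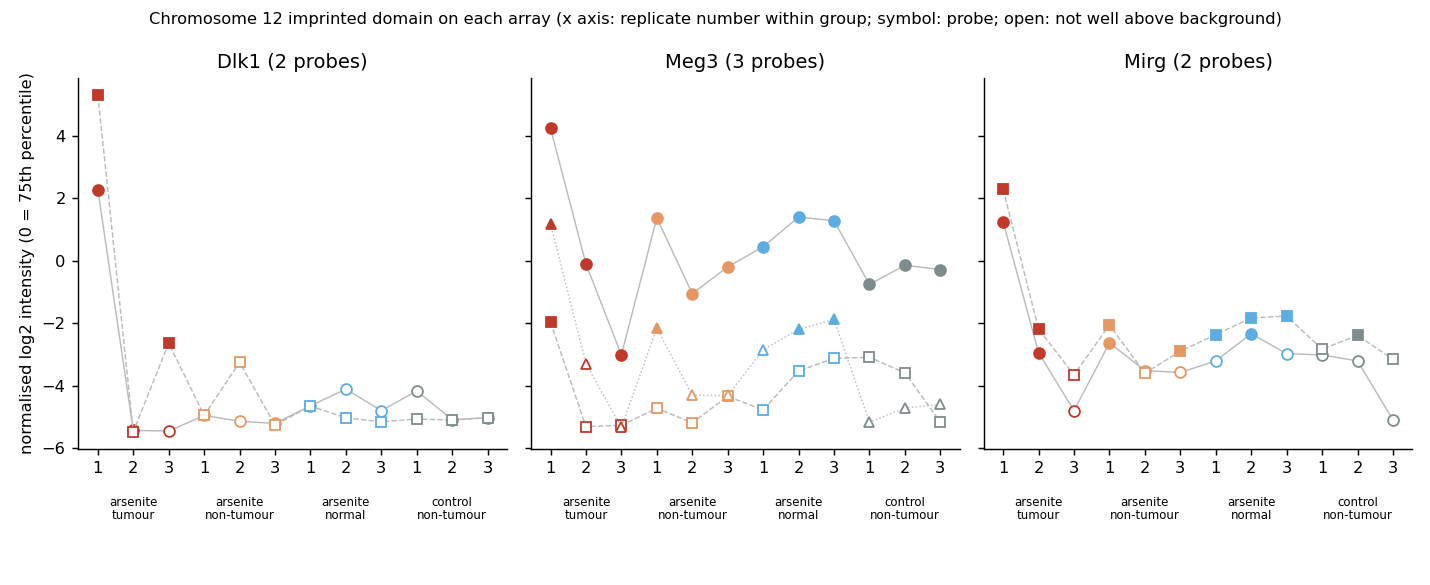
Normalised log2 intensity (y axis) of the probes of Dlk1, Meg3 and Mirg on each array (x axis, replicate number within group); symbols and line styles mark the probes, lines join the values of 1 probe, and open symbols are not well above background. Every probe is highest in tumour 1, and tumours 2 and 3 lie among or below the other arrays except for 1 Dlk1 probe in tumour 3.

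Cdkn1c was not called in any comparison. It gave -0.54, 0.27 and 0.47 in tumours and -0.65, -0.92 and -0.16 in arsenite non-tumour liver, -0.64, -0.47 and -0.53 in arsenite normal liver and -0.14, 0.18 and -0.03 in control non-tumour liver. Tumour 1 lay within the non-tumour range, whereas tumours 2 and 3 lay above all 6 arsenite livers. The difference was 0.64 ± 0.26 against arsenite non-tumour liver (adjusted p = 0.062) and 0.61 ± 0.26 against arsenite normal liver (adjusted p = 0.072), and 0.06 against control non-tumour liver (adjusted p = 0.87). Leaving out tumour 1 brought the first difference to 0.95 (adjusted p = 0.0044) and the second to 0.91 (adjusted p = 0.0053). The first was also called without non-tumour array 3 (adjusted p = 0.025), with array weights (0.012), with a variance trend and robust fit (0.0499) and with 2 other scalings (0.028 and 0.0496). The second was called with array weights (0.015) and with 3 other scalings (0.018 to 0.0497). For the first, replicate numbers pair tumours with non-tumour liver by the rule used here, and a block over all 12 arrays gave an adjusted p of 0.045, against 0.10 in a block over those 6 arrays.

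The other genes of the distal chromosome 7 cluster around Cdkn1c did not move in 1 direction. Ascl2, a transcription factor gene of the placenta and of intestinal stem cells, was detected in tumours only, at 1.23, 0.86 and 0.67, and was at least 16.0-fold higher there than in arsenite non-tumour liver (adjusted p = 2.3e-06). Like H19 and Peg3, Ascl2 entered the test only through the tumours and could be called only higher. Cd81, a tetraspanin gene, was 1.51-fold higher (adjusted p = 0.0049). Slc22a18, a transporter gene, stood at 5.57, 5.82 and 5.92 in tumours against 6.73, 6.70 and 6.62 in arsenite non-tumour liver, a difference of -0.92 ± 0.11 (adjusted p = 6.4e-05). Osbpl5 (-0.62) and Nap1l4 (-0.29) were called lower as well. With probes tested singly by limma, the same Nap1l4 probe was not called (adjusted p = 0.053). Nor was its second probe (-0.32, adjusted p = 0.15). Kcnq1ot1, the non-coding RNA that in mouse silences this cluster on the paternal copy, was not called, at -1.12 to -0.20 in tumours and -1.88 to -0.93 in arsenite non-tumour liver. Kcnq1 (-0.23) and Tssc4 (0.17) were not called either, nor was the other Kcnq1 probe (-0.60). Phlda2 was above background on 1 tumour array only. These neighbours were named by their place on the chromosome, after their values had been seen.

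Grb10 and Plagl1 were not called in any comparison. Grb10 gave -1.80, -0.78 and -2.13 in tumours and -2.06, -1.07 and -2.50 in arsenite non-tumour liver (difference 0.31 ± 0.40, adjusted p = 0.56). It was higher in the tumour in each of the 3 pairs of equal number, and with the replicate block the same difference had an SE of 0.091 and an adjusted p of 0.065 over those 6 arrays, and an SE of 0.36 and an adjusted p of 0.51 over all 12. It gave -1.97, -1.69 and -1.66 in arsenite normal liver and -1.62, -1.49 and -0.91 in control non-tumour liver. Plagl1, a zinc finger transcription factor gene, gave -1.72, -1.01 and -1.77 in tumours and -2.28, -1.21 and -1.27 in arsenite non-tumour liver (0.09 ± 0.30, adjusted p = 0.84), and its other 3 probes were not called either. On the chromosome Grb10 lies between Ddc and Cobl, which moved in opposite directions. Ddc, the enzyme gene for aromatic amine synthesis, gave 3.02, 2.85 and 3.53 in tumours against 6.17, 6.45 and 6.12 in arsenite non-tumour liver, a difference of -3.11 ± 0.21 (adjusted p = 2.2e-06). Cobl, an actin nucleator gene, gave 2.26, 2.61 and 2.60 in tumours against 0.08, 0.59 and 0.44 in arsenite non-tumour liver, a difference of 2.12 ± 0.20 (adjusted p = 1.6e-05). The order of the 3 genes was thus lower, not called and higher along 1 stretch of chromosome 11.

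**Figure D4:**
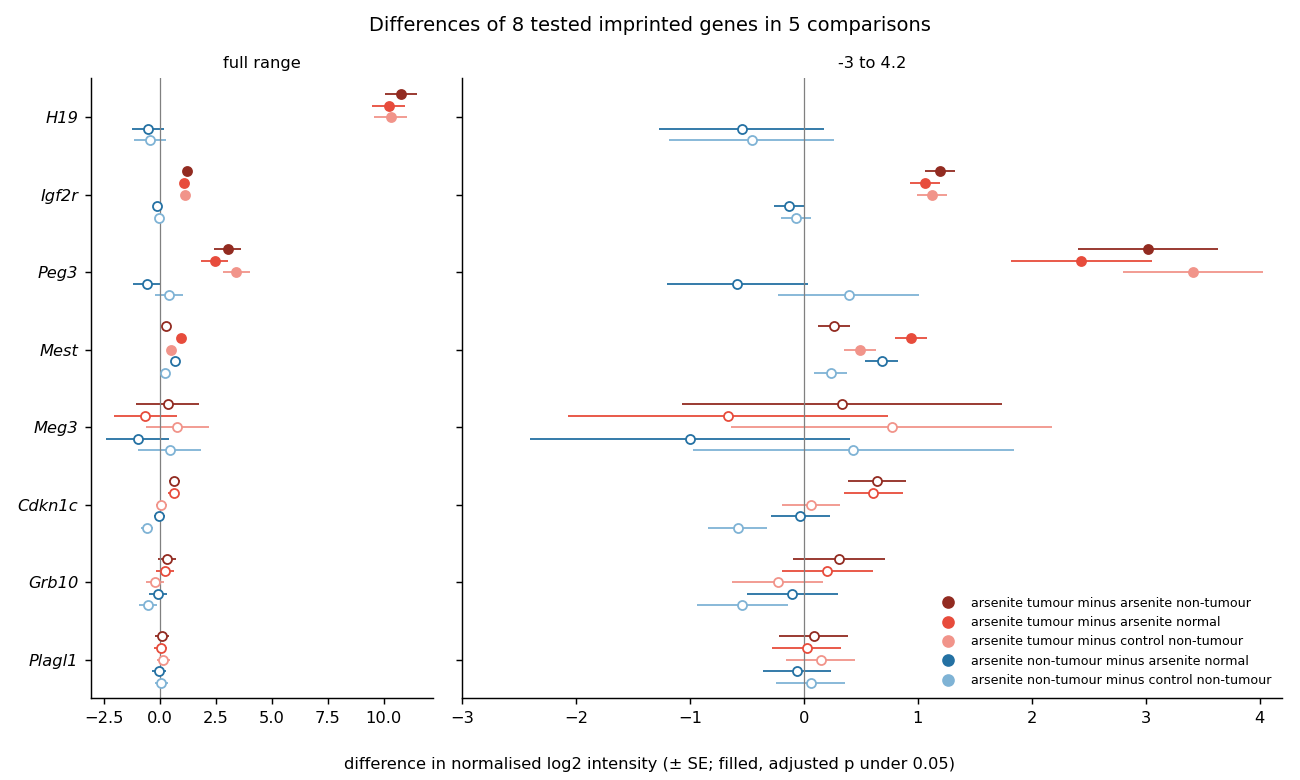
Difference in normalised log2 intensity (x axis, ± SE, n = 3 arrays per group) of the 8 tested members in 5 comparisons, at full range on the left and enlarged on the right, where the tumour points of H19 lie beyond the axis. Filled points passed an adjusted p of 0.05: H19, Igf2r and Peg3 are filled in all 3 tumour comparisons, Mest in 2. The tumour points of H19 and Peg3 are fitted values against arrays on which the probe was not well above background, so their place gives no measured size, and no point is filled in the 2 comparisons without tumours.

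A wider list of 61 imprinted genes held 59 on the array and 36 with a tested probe. Between arsenite tumours and arsenite non-tumour liver 5 of the 36 were called higher and 16 lower, beside 17.1% and 29.9% of all genes. Their median difference was -0.29, against -0.13 over all genes. The 5 that rose were Ascl2, Airn, Cobl, Blcap and Cd81. Ascl2 entered the test only through the tumours and could be called only higher, so the count is a description. Blcap, the gene of bladder cancer-associated protein, gave 5.27, 6.06 and 5.49 in tumours and 4.22, 4.01 and 3.35 in arsenite non-tumour liver (1.75 ± 0.24, adjusted p = 0.00019). Among those that fell, Dcn, the gene of the matrix proteoglycan decorin, gave 3.98, 4.06 and 3.84 in tumours and 5.97, 6.10 and 5.98 in arsenite non-tumour liver (-2.06 ± 0.11, adjusted p = 4.0e-07). Fibroblasts and stellate cells express Dcn: the 9 markers of these cells summed to 9.62 to 17.9 in tumours and 11.4 to 12.3 in arsenite non-tumour liver, with 4 called higher and 4 lower, and their part in the fall of Dcn was not tested. The amino acid transporter gene Slc38a4 gave 4.16, 4.27 and 4.60 in tumours and 5.69, 5.62 and 5.58 in arsenite non-tumour liver (-1.29 ± 0.13, adjusted p = 2.6e-05). Ppp1r9a (-1.48) and Mcts2 (-0.82) fell, as did Ddc and Slc22a18. Against arsenite normal liver 6 were called higher and 12 lower, with Pon2 added to the genes that rose (0.59 ± 0.14, adjusted p = 0.0054; its second probe, at 0.63, was not called) and the same 6 genes (Dcn, Ddc, Slc38a4, Ppp1r9a, Slc22a18 and Mcts2) of smallest p among those that fell. Against control non-tumour liver the counts were 6 and 15, and Casd1 (-0.75) stood among the 6 of smallest p that fell in place of Mcts2 (-0.82).

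**Figure D5:**
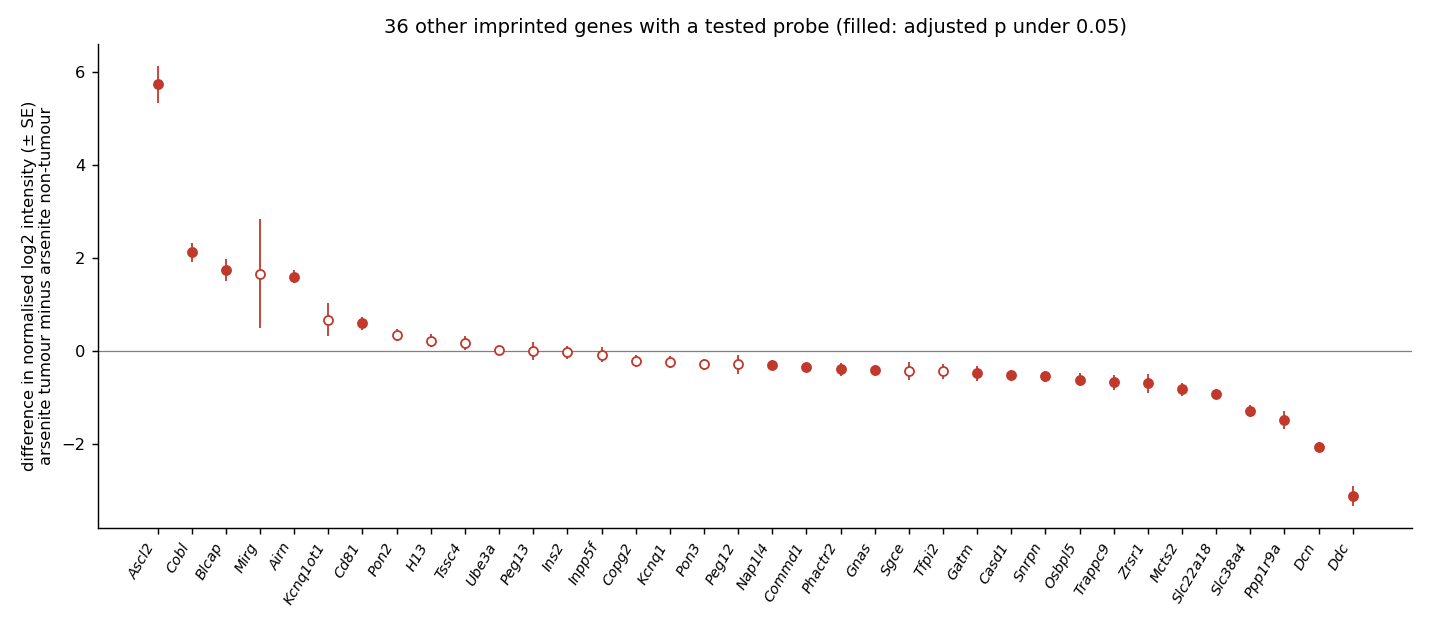
Difference in normalised log2 intensity (y axis, ± SE) between arsenite tumours and arsenite non-tumour liver for the 36 tested genes of the wider imprinted list, in order of size (x axis); filled points passed an adjusted p of 0.05. Filled points stand at both ends: 5 above 0 and 16 below 0, with Ddc lowest; the value of Ascl2 is fitted against arrays where it was not well above background and gives no measured size.

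In a list of 30 genes of IGF signalling and of imprint maintenance, 21 had a tested probe. Of these 2 were called higher and 5 lower in tumours than in arsenite non-tumour liver, beside 17.1% and 29.9% of all genes, with a median difference of 0.01 against -0.13 over all genes. The count of genes called higher depended on the scaling: it was 4 with quantile normalisation and 6 with a scaling over probes detected on every array. Igfbp1, a secreted IGF-binding protein made by hepatocytes, gave 9.78, 9.63 and 9.47 in tumours and 4.95, 4.42 and 4.68 in arsenite non-tumour liver, a 30.8-fold difference (adjusted p = 0.00037). Uhrf1, which brings the maintenance DNA methyltransferase to copied DNA, gave -0.12, 0.41 and -0.58 in tumours and -2.52, -3.43 and -1.85 in arsenite non-tumour liver (2.51 ± 0.47, adjusted p = 0.0015). It was well above background on 3 tumour, 2 arsenite non-tumour, 1 arsenite normal and 0 control arrays, so it entered the test only through the tumours. The other Uhrf1 probe, A_66_P120074, was not well above background on any array. Uhrf1 is also a gene of dividing cells, and Mki67, a marker of division, was 12.7-fold higher on the same arrays. The part of cell division in the rise of Uhrf1 was not tested.

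The 5 genes of this list that fell were Igfbp4, Igfals, Igfbp5, Igf1 and Zfp445. Igf1, the growth factor that adult liver secretes, gave 4.75, 5.40 and 6.23 in tumours and 7.68, 7.57 and 7.61 in arsenite non-tumour liver (-2.17 ± 0.28, adjusted p = 0.00013), and 4 of its 5 probes were called lower. Igfals, the carrier subunit of circulating IGF complexes, gave -0.93, -0.92 and 0.84 in tumours against 3.69, 3.80 and 3.74 in arsenite non-tumour liver (-4.09 ± 0.39, adjusted p = 1.8e-05). Igfbp4 differed by -0.96 and Igfbp5 by -3.01. Zfp445 (-1.09, adjusted p = 0.0048), which with Zfp57 keeps methylation at imprints in mouse, was named after its values were seen. Zfp57 itself, Trim28, Ctcf and Dnmt1 were well above background on 12 of 12 arrays and were not called. Like the receptors and fetal growth genes that follow, they were named with their values known. Igf1r, a signalling receptor gene, was not called. Insr, the insulin receptor gene, was not called on its representative probe, but its probe A_55_P2173927 was 1.57-fold higher in tumours than in arsenite non-tumour liver (adjusted p = 0.017 over all probes). The probes of M6pr, the other mannose 6-phosphate receptor gene, disagreed in direction. Its representative probe was called higher in tumours against arsenite normal liver (0.24 ± 0.07, adjusted p = 0.020), whereas A_55_P2054311 was called lower against arsenite non-tumour liver (-0.22, adjusted p = 0.046 over all probes) and control non-tumour liver (-0.23, adjusted p = 0.037). Igf2bp2, Igf2bp3, Lin28b and Plag1, genes of fetal growth known to act on or beside Igf2, were below background on all 12 arrays. Hmga2, another gene of this list, was well above background in tumour 1 alone on its probe A_52_P300730, and on no array on A_55_P2043921. Against arsenite normal liver the counts of this list were 3 higher and 5 lower, and against control non-tumour liver 2 and 5. Among genes known from liver tumours, Afp, the fetal liver protein, rose at least 2005-fold against arsenite non-tumour liver, and Gpc3 rose at least 243.3-fold. Both entered the test only through the tumours. The other Gpc3 probe, A_55_P2165344, was below background on all 12 arrays.

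The arsenite line was set against the control line in non-tumour liver, on 1 slide. There 1 gene of 18101 was called (0.00552% of genes, by limma), with 1015 at an unadjusted p under 0.05, and no member was called. H19 and Peg3 were below background on all 6 arrays. Igf2r differed by -0.07 ± 0.13 (adjusted p = 1.0) and Mest by 0.23 ± 0.14 (unadjusted p = 0.13), Mest without overlap, as held in this direction for 3.63% of all genes. Cdkn1c was lower in arsenite non-tumour liver, at -0.65, -0.92 and -0.16, than in control non-tumour liver, at -0.14, 0.18 and -0.03, without overlap. Its difference of -0.58 ± 0.26 had an unadjusted p of 0.045 and an adjusted p of 0.88, and groups that did not overlap in this direction made up 6.87% of all genes. Of both lists no gene was called.

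Between non-tumour and normal liver of the arsenite line 0% of genes were called, with 1234 at an unadjusted p under 0.05, and the 2 groups lay on different slides. Mest had the smallest unadjusted p of the tested members, though not the largest difference: all 3 non-tumour values were above all 3 normal values, by 0.68 ± 0.14 (1.60-fold, unadjusted p = 0.00065, adjusted p = 0.31), and its second probe, not well above background in normal liver, was at least 1.73-fold higher (adjusted p = 0.31 over all probes). Groups that did not overlap in this direction made up 7.87% of all genes. Igf2r, at 1.80, 1.96 and 1.91 in non-tumour liver and 2.02, 2.07 and 1.96 in normal liver, differed by -0.13 ± 0.13 (adjusted p = 0.92), with no overlap, as did 7.31% of all genes in this direction. The remaining tested members were not called and their adjusted p was 0.92 or above. In order of its mean level Mest thus ran from tumours over arsenite non-tumour and control non-tumour to arsenite normal liver, of which the first pair overlapped and the non-tumour groups were not called apart. For Igf2r the tumours stood first and the other 3 groups lay within 0.13 of each other in mean level.

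Genes whose values over the 12 arrays were most like a member's were found by the root mean square difference of log2 values, each gene centred on its own mean. For H19 the nearest were Erich4 (0.88), Akr1c18 (0.96), Gldn (0.96), Afp (1.04) and Sult2a6 (1.08). For Igf2r they were Anxa4 (0.092), Lmna (0.12), Cd2ap (0.12), Noct (0.12) and Atpif1 (0.12), and for Peg3 they were Stap1 (0.51), Tceal8 (0.59), a transcript listed as TC1725171 (0.60), D230034L24Rik (0.61) and Il33 (0.62). For Mest they were an entry listed as NAP093547-001 (0.16), Slc39a6 (0.19), Atg16l2 (0.19), Mvp (0.19) and Itpkc (0.19). The measure shows alike profiles over 12 arrays that share their normalisation. Outside the tumours H19 and Peg3 were not well above background, so their distances rest in part on signals that were not measured.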

How the data were processed

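Total RNA of 12 livers and liver tumours was measured on 1-colour Agilent arrays. Per the file headers, the authors' deposited scanner output gives a background-subtracted intensity per spot, extracted with version 10.7.3.1, whereas the submitters' processing notes name 12.0.3.1. The authors' deposited value table holds a linear ratio of the processed signal to the array's 75th percentile, which was checked on 100% of spots to within 1%. The positions listed in the files are on mm9. From the processed signals, log2 values minus each array's 75th percentile over the spots outside controls were computed; spots of a probe were averaged without outlier marks. A probe was kept if all 3 arrays of some group showed it well above background (24144 probes), and the probe of highest mean stood for its gene. Between 21853 and 25418 of 55681 probes were well above background per array, and 3 arrays per group limit the precision. The test was limma 3.58.1 in R 4.3.3 (lmFit and eBayes over all 12 arrays, 4 group means), with Benjamini-Hochberg adjustment over all genes, checked on simulated data. Figures were drawn with Python.

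Of genes with several probes, 4507 were reduced to 1. The rule for named genes took all 10 members with every probe; of the wider imprinted list up to 6 called higher and 6 lower of smallest p per comparison, and of the IGF list up to 4 each way; the 5 nearest profiles of H19, Igf2r, Mest and Peg3; and Afp, Gpc3 and Mki67. The members and lists were chosen with earlier results of these data known. Replicate numbers are shared between groups: residuals of equal-numbered arrays correlated across genes at 0.13, 0.13 and 0.23 between tumours and arsenite non-tumour liver, and of unequal numbers at -0.15 to -0.003, so that these numbers were taken as pairs; between the other groups they were not. RefSeq promoter windows were matched by symbol for 8 of 10 members. Alternatives changed the normalisation, background correction, filter, probe choice, arrays in the fit, replicate block, array weights and variance model, and left out each array in turn.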

Additional observations from a re-analysis of the deposited data

How the results depend on the processing

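Of 745 differences of tested members under alternatives, 681 kept their direction and their side of the threshold, 15 became called, 5 lost the call and 0 reversed as called values; 44 changed sign but were called in neither setting. H19 and Igf2r were called under every alternative in all 3 tumour comparisons (Igf2r differences 0.90 to 1.35; H19 could not be tested where a probe had to be above background on all 12 arrays, which left 5 members and 1 call, Igf2r, higher in each of the 3 tumour comparisons). Scaling to the 75th percentile of probes detected on every array called 5 members higher in tumours than in arsenite non-tumour liver, with Mest and Cdkn1c added. Leaving out 1 array at a time gave 3 to 4 members higher in that comparison, 4 to 5 against arsenite normal liver (with 0 to 1 lower, Meg3 without tumour 1) and 3 to 4 against control non-tumour liver; the other counts stayed at 0.

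With the replicate number as a block over all 12 arrays 4 members were called higher in each tumour comparison, and over 6 arrays 3. The block lost Peg3 against arsenite normal liver (adjusted p = 0.061) and Mest against control non-tumour liver (0.064), both over 6 arrays, where numbers did not meet the rule for pairs; over all 12 arrays it called Cdkn1c against arsenite non-tumour liver (0.045), and it changed no other member's call. Scaling moved the share of calls that were higher in tumours than in arsenite non-tumour liver, which was 36.3%, to 48.1% with quantile normalisation and 53.6% with probes detected on every array, and the median of all genes by 0.16 in the last case; a median shift moved it by 0.22 against arsenite normal liver, with 59.5% of calls higher in place of 35.7%. Under these scalings 5 to 7 of the wider imprinted list were called higher and 10 to 14 lower than in arsenite non-tumour liver, and of the IGF list 2 to 6 higher (6 with probes detected on every array) and 5 lower. No fit with slide as a block or random block was possible for the tumour comparisons, since slide and group cannot be told apart. Signals near background limit Igf2, Peg3, Mest and Dlk1.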

Other observations

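Tumour 1, which held the highest Dlk1, Meg3 and Mirg signals, was also the highest array for Igfbp3 and Igfbp6, secreted IGF-binding protein genes; both were singled out after their values were seen. Igfbp3 gave 2.57, 0.27 and -1.74 in tumours and -1.28, -0.89 and -0.87 in arsenite non-tumour liver. Igfbp6 gave 2.82, -1.67 and -2.60 in tumours and -0.40, 0.11 and -2.44 in arsenite non-tumour liver. Neither gene was called in any of the 5 comparisons. Igf2bp1, an RNA-binding protein gene of fetal tissue, was well above background on 1 array only, arsenite non-tumour 3, at -1.19, against -5.11 and -5.08 on the other arrays of that group.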
